A study of Rattus norvegicus with 6 samples.

Results

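RNA levels of the chemokine system were described in the thoracic aorta of rats: 54 genes that encode chemokines or chemokine receptors, of 18166 genes that the array platform names one by one. The members were all probe sets, groups of short probes that report one transcript, whose annotation names a single gene with a symbol of the Ccl, Cxcl, Xcl or Cx3cl ligands or of the Ccr, Cxcr, Xcr, Cx3cr or Ackr receptors. Each of the 54 genes had 1 probe set, out of 28879 on the array. They were 34 ligands (20 CC, 12 CXC and 2 others) and 20 receptors (10 CC, 6 CXC, 2 others and 2 atypical). Ackr1 and Ackr4 were not analysed here. The groups were spontaneously hypertensive rats (SHR), an inbred strain with high blood pressure, and the normotensive Wistar-Kyoto strain (WKY), its usual control. All rats were 24 weeks old and received no treatment beyond a tail measurement of pressure, and each strain had 3 arrays. The comparison asked how RNA levels in the aorta differ between the strains. Strain background and blood pressure cannot be told apart in this design. Whether the 3 arrays of a strain came from 3 animals is not stated, so the p-values cover only the spread between samples, and that spread may be technical. The fat around the vessels was removed before freezing, per the study's design text.

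Chemokines are small secreted proteins that guide the movement of leukocytes along gradients, and they are held on vessel walls by heparan sulphate. The families are named for the spacing of the first cysteines of the protein (CC, CXC, XC and CX3C). Their receptors span the membrane and signal through inhibitory G proteins, whereas atypical receptors (Ackr) bind chemokines and remove them without that signal. In the arterial wall, Ccl2 draws monocytes that carry Ccr2, Cx3cl1 and Cxcl16 are made as proteins anchored in the membrane, and Cxcl12 is a constitutive product of stromal and endothelial cells.

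Every SHR array measured higher than every WKY array for 11.6% of the 43 tested members, against 6.48% of all 21659 tested probe sets. Of the 5 such members, all ligands (Cxcl16, Ccl2, Ccl20, Ccl19 and Ccl17), 4 have an entry in the RefSeq promoter table of build GRCr8. The 250 bases before the start of each are printed 5′ to 3′ on the gene's strand, because the arrays of the strains did not overlap for these ligands; none of them passed the test described with the counts. They lie at chr10:55669951-55670200 (minus strand) for Cxcl16, chr9:91836909-91837158 (plus) for Ccl20, chr5:61761165-61761414 (minus) for Ccl19 and chr19:10209896-10210145 (minus) for Ccl17. Capitals mark matches on either strand to 7 motifs: the NF-kB consensus, AP-1 (TGANTCA), CRE (TGACGTCA), the GC box (GGGCGG), the TATA box (TATAAA), the STAT element GAS (TTCNNNGAA) and the CCAAT box (CCAAT).
Cxcl16: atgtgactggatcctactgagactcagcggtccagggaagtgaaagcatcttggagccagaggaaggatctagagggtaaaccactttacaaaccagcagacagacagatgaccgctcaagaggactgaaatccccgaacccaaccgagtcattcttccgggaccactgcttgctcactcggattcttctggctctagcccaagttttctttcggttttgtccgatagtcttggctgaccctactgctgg
Ccl20: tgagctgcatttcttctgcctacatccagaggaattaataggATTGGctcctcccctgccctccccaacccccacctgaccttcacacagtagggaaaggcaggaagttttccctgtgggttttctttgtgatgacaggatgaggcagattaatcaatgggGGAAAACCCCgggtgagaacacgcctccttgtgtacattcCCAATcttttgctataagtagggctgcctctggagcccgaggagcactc
Ccl19: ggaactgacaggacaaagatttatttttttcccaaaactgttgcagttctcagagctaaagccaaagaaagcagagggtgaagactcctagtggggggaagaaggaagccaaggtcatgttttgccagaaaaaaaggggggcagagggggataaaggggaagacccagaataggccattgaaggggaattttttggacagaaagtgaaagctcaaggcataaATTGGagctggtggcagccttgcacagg
Ccl17: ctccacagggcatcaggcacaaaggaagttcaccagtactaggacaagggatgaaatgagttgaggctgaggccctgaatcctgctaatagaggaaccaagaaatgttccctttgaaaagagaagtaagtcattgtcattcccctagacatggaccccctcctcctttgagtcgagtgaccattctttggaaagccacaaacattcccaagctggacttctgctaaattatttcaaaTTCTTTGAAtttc

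In these windows Ccl20 held 1 NF-kB match, 89 to 80 bases before the start, and 2 CCAAT boxes. Ccl19 held 1 CCAAT box and Ccl17 held 1 GAS match. No match to the 7 motifs was found in the window of Cxcl16. Among the 42 members with an entry, 9 held an NF-kB match (Ccl20, Ccl7, Ccl9, Ccr3, Cxcl1, Cxcl10, Cxcl11, Cxcl2 and Cxcl6), against 6.41% of the windows of all 27457 genes in the table. The TATA box was found in 12 of the 42 against 13.1% of all windows. AP-1 was found in 7 of 42 against 6.36%, and GAS in 4 of 42 against 7.52%. The CCAAT box was in 16 of 42 against 34.3%, the GC box in 10 of 42 against 32.4% and CRE in 0 of 42 against 1.70%. Overlapping matches were counted once per window. A match describes letters only and is not a measured site.

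The values are log2 signals. Signals of different probe sets do not rank amounts of RNA, and no call of presence was given. As a guide to dim signals, chosen after the data were seen, 95% of 1359 probe sets of olfactory and vomeronasal receptors had a mean below 2.06, and the medians of the 6 arrays were 2.29 to 2.52. Of the 54 members, 32 had a mean above 2.06 and 26 had a mean below every array median. Markers of smooth muscle, the main cell of the aorta, had a mean of 9.42 to 9.76 on the 6 arrays, and endothelial markers of 4.29 to 5.78. The arrays were unequal. SHR replicate 1 had the highest means of markers of macrophages (5.62, against 3.59 to 5.02 on the other arrays) and white fat (7.66, against 4.32 to 7.40). The plasma cell gene Jchain (5.76, against 1.56 to 2.59) and the sympathetic gene Th (5.92, against 1.13 to 1.68) were also high on it alone. The mean of B cell and lymphoid markers was 2.25 on it against 1.63 to 1.87, and without Jchain the other 9 genes had a mean of 1.85 on it and 1.81 on WKY replicate 3. SHR replicate 3 had the lowest means of macrophages (3.59) and white fat (4.32). WKY replicate 3 had the lowest fitted array weight, 0.22, against up to 2.05. In whole tissue, fewer cells of a type and less RNA per cell cannot be told apart.

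Across the strains, the clearest measured differences were in a pair of ligands, Cxcl16 and Ccl2, both higher in SHR by more than 1 log2 unit. No member passed the test of all probe sets: 0 of 43 tested members had a limma adjusted p under 0.05, where 0.0693% of the 21659 tested probe sets did. The other 11 members, whose mean lay below the 25th percentile of all probe sets, were not tested. At an unadjusted p under 0.05 there were 3 members higher in SHR (Cxcl16, Ccl2 and Ccl20), or 6.98%, against 3.01% of all tested probe sets, and 0 lower, against 2.54%. The 3 arrays of SHR lay wholly above those of WKY for 5 tested members, or 11.6%, against 6.48% of all, and wholly below for 1, Ccr4, against 5.61%. The median difference of the 43 members was 0.09 on the log2 scale, and that of all tested probe sets was -0.01. Without SHR replicate 1 the members' median was -0.017 and 6 members had an unadjusted p under 0.05, 3 of them higher (Ccl2, Ccr8 and Cxcl16) and 3 lower (Ccl11, Ccl24 and Cxcl12), where 2.73% of all tested probe sets were higher and 3.39% lower. Without WKY replicate 3 the number was also 6, 5 of them higher and 1 lower (3.40% and 3.37% of all). Without SHR replicate 3 it was 5, all higher (2.27% of all). The 28 tested ligands had a median difference of 0.12 and the 15 tested receptors one of 0.05. A p-value that misses the threshold does not show that the strains were alike.

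**Figure D1:**
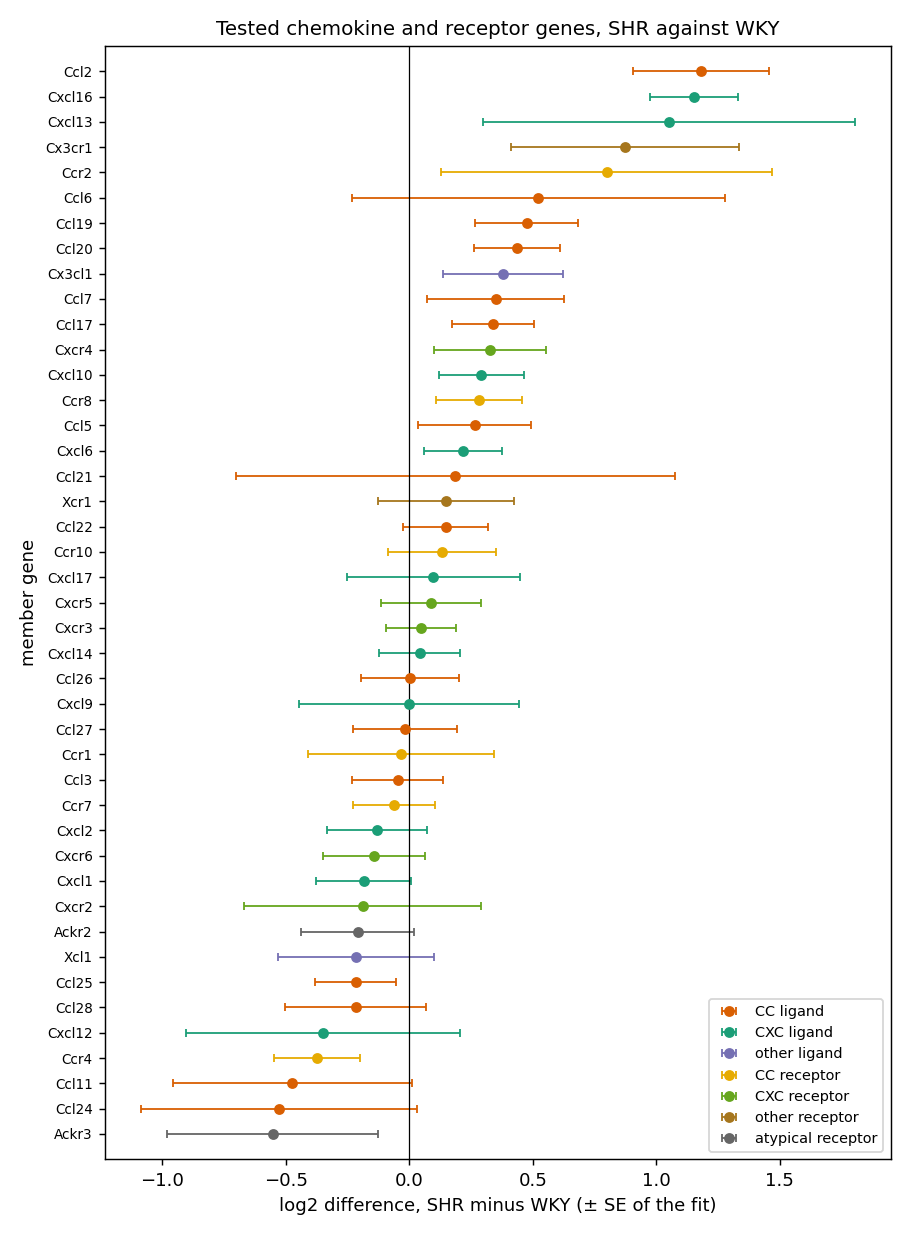
Fitted log2 difference of each of the 43 tested members, SHR minus WKY, with bars of 1 SE of the fit (3 arrays per strain) and colours for the role of the gene. Cxcl16 and Ccl2 lie at 1.15 and 1.18 with SE of 0.18 and 0.27, whereas Cxcl13, at 1.05, has an SE of 0.75.

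Cxcl16, a membrane-anchored ligand that also acts as a scavenger receptor for oxidised lipoprotein, had the smallest p of all members (probe set 17658124). In the order of the replicate numbers, used throughout, its log2 level was 6.98, 6.91 and 6.89 in SHR and 6.05, 5.78 and 5.48 in WKY. The strains did not overlap, and the SHR arrays lay close to one another. The mean was 6.92 ± 0.05 (SD, n = 3) for SHR against 5.77 ± 0.28 for WKY. The fitted difference was 1.15 ± 0.18 (SE), a ratio of signals of 2.22, with an unadjusted p of 0.000263 and a limma adjusted p of 0.136. It ranged from 1.01 to 1.29 when 1 array was left out and was 0.98 with WKY replicate 3 and SHR replicate 1 left out together. With array weights, which give WKY replicate 3 little influence, Cxcl16 passed (difference 1.03, limma adjusted p = 0.0338), and over all alternatives its adjusted p ran from 0.0338 to 0.647. The part of any cell type in this difference was not tested.

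The receptor of Cxcl16 is Cxcr6, found on subsets of T and natural killer cells. Its level was 1.56, 1.45 and 1.03 on the SHR arrays and 1.76, 1.47 and 1.24 on the WKY arrays. These values overlap and lie below every array median. The difference was -0.14 ± 0.21 (SE), with a 95% interval from -0.63 to 0.34. Of 13 measured T cell markers, 10 had a mean under every array median. The others were Cd247 and Cd5, with means of 2.80 and 2.89, and Cd4, which rat macrophages also carry, with a mean of 5.82.

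Ccl2, the main attractant of monocytes, lay at 5.75, 4.84 and 4.75 on the SHR arrays and at 4.11, 3.86 and 3.83 on the WKY arrays (probe set 17649426). The lowest SHR array stood 0.64 above the highest WKY array. The means were 5.11 ± 0.55 (SD, n = 3) and 3.93 ± 0.15, and the difference was 1.18 ± 0.27 (SE), a ratio of signals of 2.27, with an unadjusted p of 0.00316 and a limma adjusted p of 0.463. SHR replicate 1, where macrophage markers were highest, was also the highest for Ccl2. Without it the difference was 0.86 (limma adjusted p = 0.254), and over the alternatives the adjusted p of Ccl2 ran from 0.138 to 0.992. Ccl2 and Cxcl16 had an unadjusted p under 0.05 in each of the 14 alternatives.

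The strains overlapped for Ccr2, the receptor of Ccl2 on monocytes, although within each strain its arrays had the same order as those of Ccl2. Its level was 4.63 on SHR replicate 1, and 2.46 and 2.02 on the other SHR arrays, against 2.83, 2.39 and 1.50 in WKY. One array carried the difference of 0.80 ± 0.67 (SE; 95% interval -0.77 to 2.37), which was 0.00 without SHR replicate 1. The other ligands of Ccr2 are Ccl7 and Ccl12. Ccl7 lay at 3.81, 2.87 and 2.83 in SHR and 2.93, 2.64 and 2.89 in WKY, a difference of 0.35 that was 0.03 without SHR replicate 1. Ccl12 was below the level for testing, at 1.06 to 1.21 in SHR and 0.82 to 1.03 in WKY, a gap of 0.03 between dim signals.

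Ccl2 sits in a run of 5 neighbouring members in the RefSeq gene order, Ccl2, Ccl7, Ccl11, Ccl12 and Ccl1. Their measured values were not alike. Beside the 1.18 of Ccl2, Ccl7 differed by 0.35 and Ccl11, the eotaxin that attracts eosinophils, by -0.47 ± 0.48 (SE). Ccl11 lay at 4.89, 3.41 and 2.86 in SHR and 4.21, 3.86 and 4.50 in WKY, and its difference was -1.06 without SHR replicate 1. Ccl1 lay between 0.66 and 0.94 on all arrays and was not tested. The differences between these neighbours were not tested against each other.

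**Figure D2:**
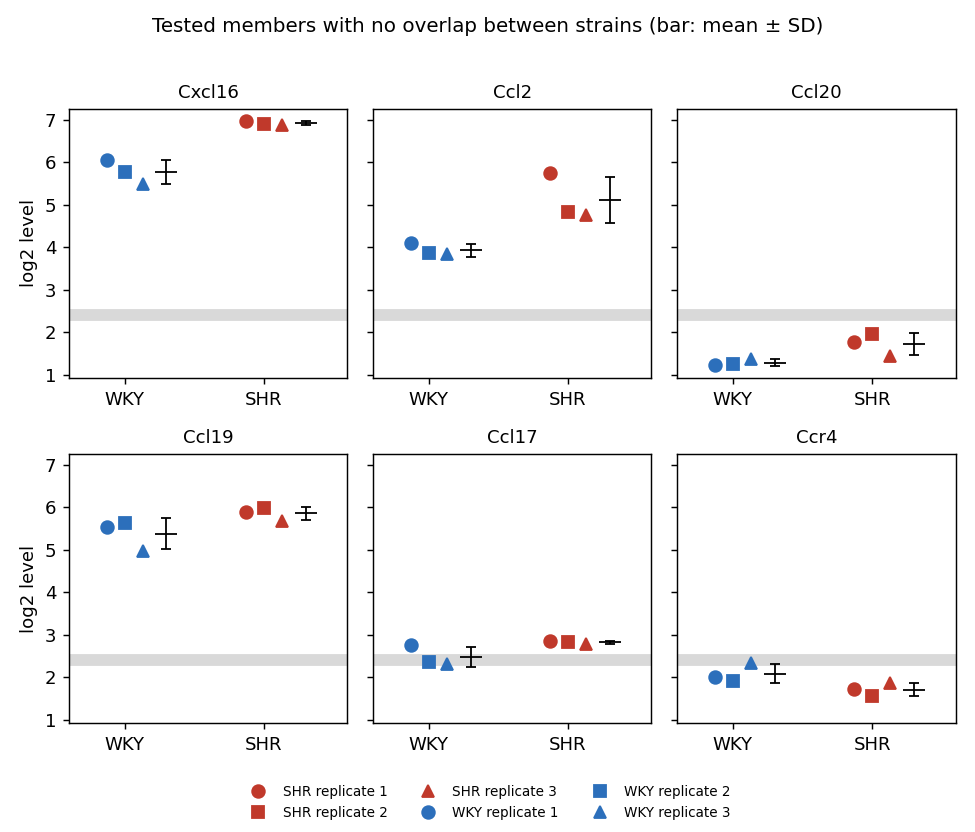
Log2 level on each array (points, with 1 marker shape per replicate) and mean ± SD of each strain (bars) for the 6 tested members whose strains did not overlap. The grey band spans the array medians, 2.29 to 2.52; Cxcl16 and Ccl2 lie well above it with a gap between the strains, all 6 points of Ccl20 lie below it, and those of Ccr4 lie below it except WKY replicate 3, at 2.33.

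For the other 4 members without overlap the gap between the strains was small, from 0.015 (Ccl17) to 0.057 (Ccl20). Ccl20, which attracts cells with Ccr6 to epithelia, lay at 1.77, 1.96 and 1.43 in SHR and 1.23, 1.25 and 1.38 in WKY. All 6 values were below 2.06, so this difference of 0.44 ± 0.17 (SE) is one between dim signals (unadjusted p = 0.0392, limma adjusted p = 0.882). Its receptor Ccr6 was below the level for testing, at 0.56 to 0.92.

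Ccl19, a ligand that brings dendritic cells and T cells to lymphoid tissue, lay at 5.90, 5.99 and 5.69 in SHR and 5.54, 5.64 and 4.98 in WKY. The difference was 0.48 ± 0.21 (SE; limma adjusted p = 0.908) and was 0.27 without WKY replicate 3, the lowest array. Ccl17, a ligand of Ccr4 made by dendritic cells, lay at 2.86, 2.83 and 2.78 in SHR and 2.76, 2.37 and 2.32 in WKY. Ccr4 itself lay the other way, at 1.72, 1.55 and 1.86 in SHR and 2.01, 1.91 and 2.33 in WKY. The differences of Ccl17 and Ccr4 were 0.34 ± 0.17 and -0.37 ± 0.17 (SE), with a limma adjusted p of 0.923 and 0.921. Every tested member not named so far with its adjusted p had one of 0.923 or above. Ccl22, the other ligand of Ccr4, differed by 0.15 at a dim level of 1.48 to 1.97.

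Among the 9 homeostatic ligands, which direct the normal traffic of leukocytes, 8 had a mean above 2.06, 5 differed by more than 0 and 4 by less, and their median difference was 0.04. Cxcl12, the retention signal for blood-forming and immune cells, had the highest mean signal of the members. It lay at 8.38, 6.92 and 5.92 in SHR and 7.60, 7.58 and 7.09 in WKY, so the SHR arrays spanned both ends of the range. The difference was -0.35 ± 0.55 (SE; 95% interval -1.64 to 0.95), and it went from -1.001 without SHR replicate 1 to 0.23 without SHR replicate 3. Ccl21, which lymphatic vessels make to attract cells with Ccr7, lay at 7.49, 4.04 and 4.51 in SHR and 4.13, 5.68 and 5.66 in WKY. That range of 3.45 was the widest of the tested members, and the difference of 0.19 had an SE of 0.89. Lymphatic endothelial markers had a mean of 4.38, 2.83 and 2.69 in SHR and 4.24, 4.04 and 3.40 in WKY.

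Cxcl13, the B cell attractant of lymphoid follicles, lay at 4.80, 2.78 and 1.44 in SHR and 2.46, 1.58 and 1.83 in WKY. Its difference of 1.05 ± 0.75 (SE) rested on SHR replicate 1, without which it was 0.15. B cell and lymphoid markers other than Jchain had a mean of 1.85 on that array and of 1.56 to 1.81 on the others, and their part in the result was not tested. Its receptor Cxcr5 lay at 2.05, 1.53 and 2.09 in SHR and 2.02, 1.65 and 1.73 in WKY, a difference of 0.09 ± 0.20 (SE). Cxcl14, a ligand made by stroma and epithelia, lay at 4.09, 3.75 and 3.74 in SHR and 3.82, 3.94 and 3.69 in WKY. Its difference of 0.04 ± 0.16 (SE) had a 95% interval from -0.34 to 0.42, which spans small changes either way. Ccl27, at 3.15 to 3.90, differed by -0.02. The differences of Ccl25 and Ccl28 were -0.22 each.

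Cx3cl1, fractalkine of the endothelium, lay at 5.10, 5.39 and 4.76 in SHR and 5.10, 4.66 and 4.36 in WKY. Its strains overlapped, and the difference was 0.38 ± 0.24 (SE; limma adjusted p = 0.923). Cx3cr1, its receptor on patrolling monocytes and resident macrophages, lay at 4.80, 3.62 and 2.86 in SHR and 3.23, 2.93 and 2.51 in WKY. The difference of 0.87 ± 0.46 (SE; limma adjusted p = 0.923) was 0.35 without SHR replicate 1 and 1.32 without SHR replicate 3. Xcl1, with which T cells attract dendritic cells that carry Xcr1, lay at 2.78, 2.94 and 3.39 in SHR and 3.15, 2.70 and 3.90 in WKY. Xcr1 lay at 2.69, 1.58 and 2.19 in SHR and 1.82, 2.08 and 2.12 in WKY. Both overlapped between the strains, with differences of -0.21 ± 0.32 and 0.15 ± 0.28 (SE).

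**Figure D3:**
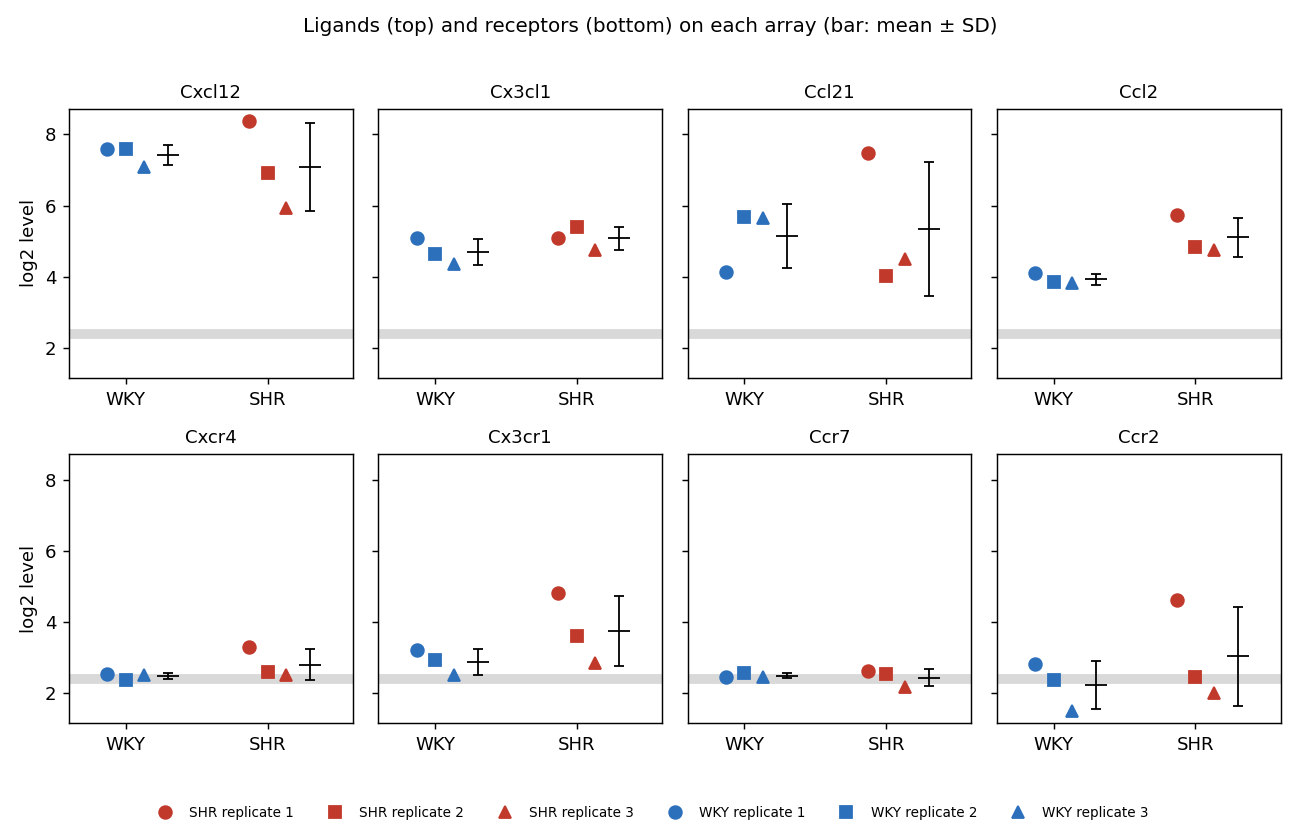
Log2 level on each array (points) and mean ± SD of each strain (bars) for 4 ligands, in the top row, above a receptor of each in the bottom row. SHR replicate 1 is the highest array for Cxcl12, Ccl21, Ccl2 and all 4 receptors, and the grey band gives the array medians, 2.29 to 2.52.

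Cxcr4, the signalling receptor of Cxcl12, lay at 3.31, 2.60 and 2.53 in SHR and 2.54, 2.39 and 2.53 in WKY. Its difference of 0.33 ± 0.23 (SE) was 0.08 without that array. Ackr3, the atypical receptor that clears Cxcl12, lay at 6.74, 5.87 and 5.44 in SHR and 7.03, 6.92 and 5.77 in WKY. Its mean was 6.02 ± 0.66 (SD, n = 3) for SHR against 6.57 ± 0.70 for WKY, a difference of -0.55 ± 0.43 (SE; limma adjusted p = 0.923). It was negative in every alternative, -0.27 without SHR replicate 3, -0.91 without SHR replicate 1 and -0.95 without WKY replicate 3. With WKY replicate 3 and SHR replicate 1 left out together, a setting added once the data had been seen, it was -1.32. Ackr3 was lower at an unadjusted p under 0.05 in limma in these last 2 settings, with array weights and with the replicate block. Over the alternatives its limma adjusted p ran from 0.0724 to 0.992. Ackr2, which degrades inflammatory CC chemokines, lay between 2.35 and 3.10 and differed by -0.21.

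Ligands of other inflammatory receptors showed small differences or a wide spread. Of the interferon-induced ligands of Cxcr3, Cxcl9 lay at 4.66, 3.32 and 2.98 in SHR and 3.97, 3.87 and 3.12 in WKY, with a mean of 3.66 in each strain and an SE of 0.45 on the difference. Cxcl10 lay at 2.63, 2.47 and 2.89 in SHR and 2.19, 2.42 and 2.51 in WKY, a difference of 0.29 ± 0.17 (SE). Cxcl11 was not tested. Cxcr3, carried by activated T cells, lay at 1.69, 1.56 and 1.42 in SHR and 1.49, 1.49 and 1.54 in WKY, all dim, and differed by 0.05 ± 0.14 (SE). Of the ligands that draw neutrophils through Cxcr2, Cxcl1, Cxcl2 and Cxcl6 differed by -0.18, -0.13 and 0.22, and Cxcl3 was not tested. Cxcr2 itself lay at 2.65, 1.26 and 0.79 in SHR and 2.15, 1.94 and 1.19 in WKY. Of the other inflammatory CC ligands, Ccl5, an attractant of T cells and monocytes, lay at 3.72, 3.23 and 3.45 in SHR and 3.63, 3.04 and 2.94 in WKY (difference 0.26 ± 0.23, SE), Ccl3 differed by -0.05 and Ccl4 was not tested.

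The ligands of the eosinophil receptor Ccr3 were Ccl11, already given, Ccl24 and Ccl26. Ccl24 was high on replicate 1 of both strains, at 3.74 in SHR and 3.76 in WKY, against 1.84 to 2.78 on the other 4 arrays. Its difference was -0.53 ± 0.56 (SE), and -1.16 without SHR replicate 1. Ccl26 differed by 0.00, and Ccr3 was not tested. Ccl6, a CC ligand of rodent myeloid cells, lay at 7.10, 5.27 and 3.92 in SHR and 5.52, 5.10 and 4.11 in WKY. Its difference of 0.52 ± 0.75 (SE) turned to -0.31 without SHR replicate 1.

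Of the 20 receptors, 14 had a mean below every array median, as had 12 of the 34 ligands and 49.1% of all probe sets, and 9 receptors had a mean above 2.06. Ccr7, the receptor of Ccl19 and Ccl21, lay at 2.62, 2.53 and 2.17 in SHR and 2.47, 2.58 and 2.46 in WKY, close to the array medians. Ccr8, a receptor of subsets of T cells, lay at 1.65, 2.04 and 2.10 in SHR and 1.66, 1.76 and 1.53 in WKY. Their differences were -0.06 ± 0.17 and 0.28 ± 0.17 (SE), and the strains overlapped for both. Ccr1 lay between 1.42 and 2.88 and Ccr10 between 1.93 and 2.65, with differences of -0.03 and 0.13. Cxcl17, an attractant of mucosal tissue, was the remaining tested ligand and differed by 0.10. The receptors Ccr9, Ccr1l1 and Cxcr1 and the ligand Ccl9 were not tested.

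Array by array, SHR replicate 1 was the highest of the 6 arrays for 20 of the 43 tested members, or 46.5%, where it was the highest for 16.7% of all tested probe sets. SHR replicate 3 was the lowest for 15, or 34.9%, against 14.9% of all. The order replicate 1 over 2 over 3 in SHR held for 21 members, or 48.8%, against 18.8% of all. Among them were Ccl6, Ccr1, Ccr2, Cx3cr1, Cxcl12 and Ackr3, whose WKY arrays had this order as well. Cxcl16, Ccl2 and Ccl17 also had this order in both strains, but for them the lowest SHR array still lay above every WKY array. For Ccl17 that gap was 0.015. The median range over the 6 arrays was 0.92 for the members and 0.67 for all tested probe sets. Of 16 macrophage markers, 6 differed by more than 0 and 10 by less, from -0.66 (Msr1) to 0.91 (Lyz2), with a median of -0.15. At an unadjusted p under 0.05 in limma there were 0 of the 16, where 3.01% of all tested probe sets were higher and 2.54% lower. The same SHR order was seen in the marker means of macrophages (5.62, 4.44 and 3.59), white fat (7.66, 5.81 and 4.32), endothelium (5.78, 4.72 and 4.29), lymphatic endothelium (4.38, 2.83 and 2.69), adventitial fibroblasts (8.54, 7.85 and 7.30) and sympathetic nerve with Schwann cells (5.97, 2.89 and 2.64). Smooth muscle had the reverse order, at 9.42, 9.63 and 9.76 in SHR, and lay at 9.60, 9.70 and 9.67 in WKY. The order 1 over 2 over 3 held in WKY for endothelium (5.77, 5.34 and 5.13), lymphatic endothelium (4.24, 4.04 and 3.40) and adventitial fibroblasts (8.33, 8.29 and 8.01). Replicate 1 was also the highest WKY array for macrophages (5.02, 4.27 and 4.46) and white fat (7.40, 6.10 and 6.19). For sympathetic nerve with Schwann cells it was the lowest WKY array (3.10, 3.22 and 3.49). The median difference between the strains was -0.58 for endothelial markers, -0.71 for white fat, -0.38 for lymphatic endothelium and -0.18 for adventitial fibroblasts. For smooth muscle it was -0.03, and for sympathetic nerve with Schwann cells 0.55. At an unadjusted p under 0.05 in limma, 2 of 10 endothelial and 2 of 9 fibroblast markers were lower (2.54% of all). None was higher, and no marker of the other lists just named was called either way. The part of these cells in the members' values was not tested.

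**Figure D4:**
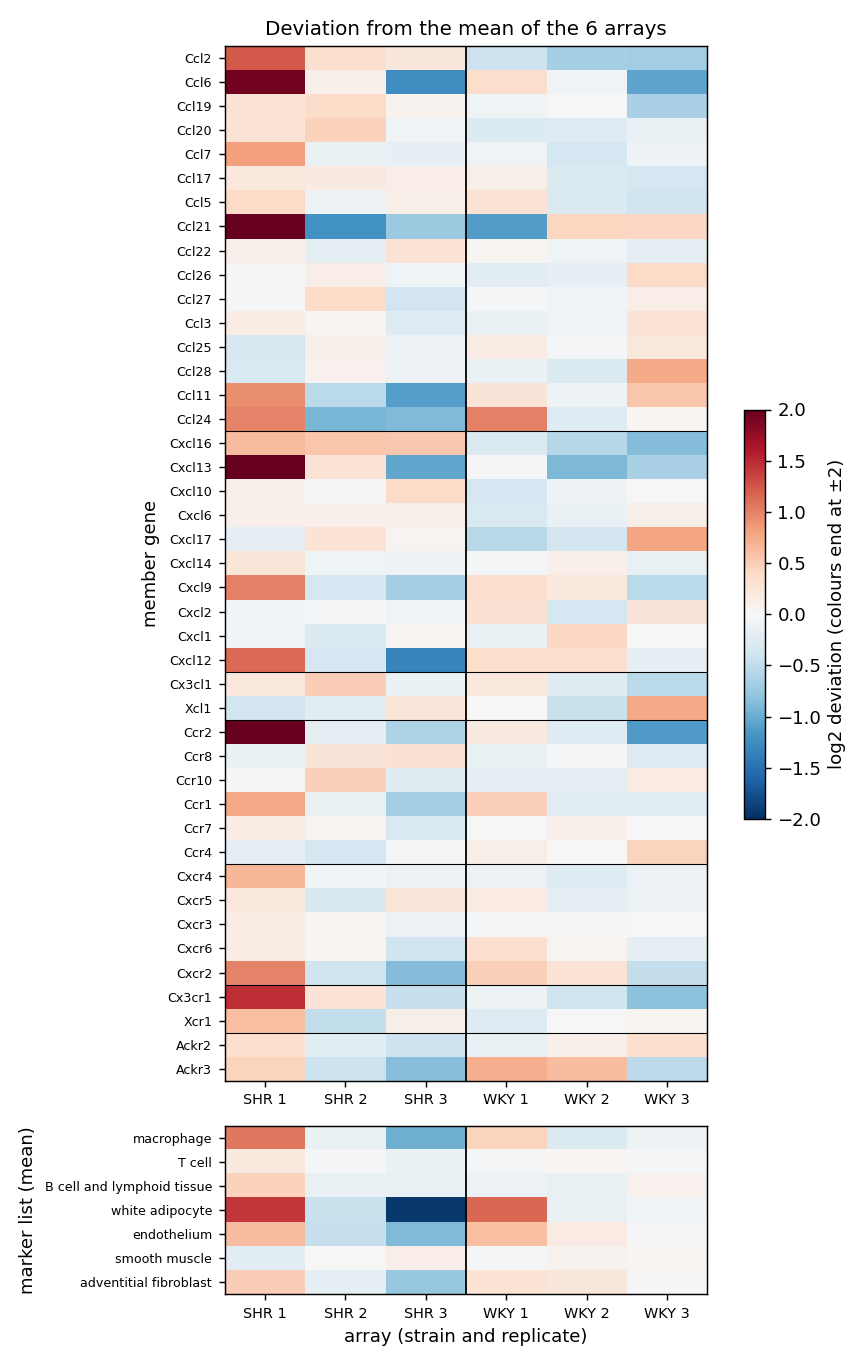
Deviation of each tested member (rows, grouped by role) from its mean over the 6 arrays (columns), on the log2 scale, above the same for the mean of 7 marker lists. The SHR 1 column is red for many members and for macrophage and white adipocyte markers. Cxcl16 is red on all 3 SHR arrays, and Ccl2, Ccl17 and Ccl19, among others, also lie above their mean on all 3.

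Other genes of the pathway were taken from 4 lists, and none of their tested members passed in limma. Of 33 genes for cytokines and factors that switch on chemokine genes, 1 was higher and 1 lower at an unadjusted p under 0.05, 5 were wholly higher and 2 wholly lower in SHR, and the median difference was 0.09. The shares of all tested probe sets were 3.01% and 2.54% by p, and 6.48% and 5.61% by lack of overlap, and the counts of all 4 lists are to be read against these. The higher gene was Il1r1, the signalling receptor of interleukin-1, at 6.79, 6.69 and 6.76 in SHR and 5.42, 5.46 and 4.90 in WKY (difference 1.49 ± 0.19, SE; limma adjusted p = 0.0784). The lower gene was Jun, a subunit of AP-1, which differed by -0.86 (limma adjusted p = 0.575). The inducers Tnf, Il1b and Ifng lay between 1.05 and 2.56 on all arrays. The third of this list by p, Il13, differed by 0.33 at a dim level.

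Of 17 genes that present or process chemokines, 3 were higher and 0 lower at an unadjusted p under 0.05, and the median difference was 0.22. They were Tpst1, which sulphates tyrosines of chemokine receptors, at 6.15 ± 0.02 (SD, n = 3) in SHR and 5.62 ± 0.17 in WKY, and the heparan sulphate proteoglycans Sdc4 and Sdc2, which differed by 0.45 and 0.44. Their limma adjusted p was 0.609, 0.852 and 0.889. The mean of the 17 genes was 5.92, 5.89 and 5.92 in SHR and 5.81, 5.79 and 5.37 in WKY, with WKY replicate 3 apart from the other arrays. Of 28 genes of signal transduction, 2 were higher (Stat3 and Grk5, by 0.71 and 0.49) and 2 lower (Vav1 and Rgs2, by -0.50 and -0.49) at an unadjusted p under 0.05, and the median difference was 0.03. Of 15 genes for chemokine-like attractants and their receptors, 2 were higher and 2 lower. Cmklr1, the receptor of chemerin, differed by 0.62 and the lymphocyte attractant Il16 by 0.35, while Mif, a cytokine that also binds Cxcr2 and Cxcr4, differed by -0.47 and the matrix protein Ccn1 by -1.44 (limma adjusted p from 0.577 to 0.875). Pf4, a platelet chemokine outside the symbol rule, lay at 5.48, 4.22 and 3.63 in SHR and 5.37, 4.61 and 4.84 in WKY.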

How the data were processed

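The authors deposited log2 values per probe set, made with RMA in Affymetrix Expression Console 1.2.1 from Affymetrix Rat Gene 2.0 ST arrays, per the submitters' processing notes. The log2 base follows from RMA and the range of the values. Neither annotation version nor build was stated. Values were used as deposited, with no detection p.

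Strain and replicate number came from the sample titles. Probe sets with a mean over the 6 arrays at or above the 25th percentile (log2 level 1.17) were fitted in limma (version 3.58.1, under R 4.3.3; lmFit, then eBayes; strain as the only term, two-sided, Benjamini-Hochberg over all 21659). The procedure was tested on simulated data, with noise drawn independently for each probe set and array. Differences shared by a whole array, as on SHR replicate 1, were not part of that simulation. All 54 members matched RefSeq by gene identifier, which served for names and gene order (GRCr8). Promoters use the first listed start of each gene.

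Members and lists were chosen with earlier results of these data known. Values on every array are given for tested members with the 12 smallest p, the 10 highest means and set ligand and receptor pairs. Some further members of the same role also have them. From each pathway list, genes with the 3 smallest p were named, most of them with the difference alone. Rgs2, Il16, Pf4, Jchain, Th, Msr1, Lyz2, Cd4, Cd5, Tnf, Il1b and Ifng were named after their values were seen.

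Precision is limited by 3 arrays per strain. The alternatives were a replicate block, other filters, further normalization, median centring, array weights, leaving out arrays, and an intensity trend with robust estimation. A further gene of the family is not reported here.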

Additional observations from a re-analysis of the deposited data

How the results depend on the processing

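No member passed in 13 of the 14 alternatives, and with array weights 1 did (Cxcl16), where 65 of 21659 probe sets passed in place of 15. The count of members at an unadjusted p under 0.05, which is 3, was 6 with array weights (5 higher and 1 lower, beside 5.05% and 5.36% of all probe sets) and 6 with the replicate block (4 higher and 2 lower, beside 3.29% and 3.21%; the limma adjusted p of Cxcl16 was then 0.193 and that of Ccl2 0.270). Deviations of same-numbered arrays from the strain means correlated at 0.35, -0.08 and 0.23. With 3 arrays per strain these values cannot show whether the numbers pair the arrays. The main fit had strain as its only term, and the replicate block was kept as an alternative. The count ranged from 2 to 6 when 1 array was left out and was 10 (4 higher and 6 lower, beside 5.65% and 6.47%) with WKY replicate 3 and SHR replicate 1 left out together, a setting added after seeing the data. The median difference of the members stayed within -0.017 and 0.18.

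Of 27 members followed through every alternative that tested them, 15 kept the sign of their difference and 12 did not. Ccl20, Ccr4, Ccr8, Cxcr3, Cxcr5, Cxcr6 and Xcr1 had no fit at the 50th percentile filter. Over the fits without 1 or both of these arrays or any other single array, Ccl21 ranged from -0.89 to 0.84, Ccl6 from -0.71 to 1.28, Ccr2 from -0.37 to 1.31, Ccr7 from -0.17 to 0.075, Cxcl12 from -1.17 to 0.23, Cxcl14 from -0.14 to 0.10, Cxcl9 from -0.77 to 0.34, Cxcr3 from -0.017 to 0.12, Cxcr5 from -0.028 to 0.27, Cxcr6 from -0.37 to 0.017, Xcl1 from -0.49 to 0.24 and Xcr1 from -0.12 to 0.43. With array weights, Ccl21 was -0.18, Ccl6 -0.0082, Cxcl14 -0.064, Cxcr5 -0.044, Xcl1 0.059 and Xcr1 -0.0090. Cxcl9 was 0.062 with further quantile normalization and 0.047 with median centring. The cause was not tested. Signals near the array medians carry no detection call, which limits what their differences show. The NK cell and mesothelium lists gave no median at the 50th percentile filter. The mean of a gene's probe sets was run for the lists only, since each member has 1.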
